A study of Mus musculus with 295 samples.

Results

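The genes described here carry names of the cell division machinery and were measured in adipose tissue of 295 mice. They were chosen by symbol alone: the MCM helicase genes Mcm2 to Mcm7, names that begin with Cenp, Kif, Cdc, Cdk, Aurk, Bub or Plk, the cyclins A, B, D and E, and Top2a and Birc5. The rule gave 103 of the 11454 genes on the array, read by 136 probes. Names are only a rough guide to function. By known function, 50 members were placed in 7 division roles: replication origins, cyclins and kinases of S to M phase, centromere, mitotic kinases and checkpoint, Top2a, mitotic kinesins, and the anaphase-promoting complex with the Cdc25 phosphatases. The other 53 were counted under other roles. Among them are the G1 genes Ccnd1, Ccnd2, Ccnd3, Cdk4 and Cdk6, transport kinesins, transcriptional Cdks and effectors of Cdc42.

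Each mouse was an F2 of a C57BL/6J by C3H/HeJ cross in which both parental strains were ApoE null, and all ate a Western diet rich in fat between weeks 8 and 24 of age. Both sexes were present, but the labels give no sex, genotype or weight for a single mouse, so all mice form 1 group. RNA of each mouse carried Cy3 and was set against a Cy5-labelled pool of all the RNAs on 1 array. A value is therefore a log2 ratio of mouse over pool, and it ranks mice within a gene but not genes against each other. The deposited values were read as log10. Their base and direction come from the values themselves, not from a label, and the base is not settled. Correlations, p-values and counts do not depend on the base.

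Dividing cells build their replication machinery in late G1 and S phase, when MCM helicases are loaded on origins with the help of Cdc6 and set off by Cdc7. Cyclin A and cyclin B with Cdk1 then drive entry into mitosis, where centromere proteins, motor kinesins, Aurora and Polo-like kinases and the anaphase-promoting complex separate the chromosomes. In fat, mature adipocytes seldom divide, while macrophages, lymphocytes and precursor cells can, and macrophages are known to gather in the fat of obese mice.

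The levels of Eif2s3y, a gene of the Y chromosome, fell into clusters that did not touch, 142 mice at or below -4.16 and 153 at or above -0.10. Of the 153, 48 carried transcripts of epididymis, with a score of at least 1.82, against at most 0.74 in the other mice. Results are therefore also given within 3 sets: 142 mice low in Eif2s3y, 105 mice high in Eif2s3y and free of epididymis transcripts, and 48 mice high in both. Other arrays stood apart as well. Mouse 12 had a male germ cell score of 4.58, against at most 1.95 in the rest, and 4 of the 6 germ cell markers measured were highest in it. Mice 127, 145, 195 and 245, all Eif2s3y-low, had T cell scores of at least 3.35, against at most 2.00 in the rest, and 12 of 13 B cell and 14 of 14 T cell markers were above the median in all 4 of these mice. A marker score is the mean z over mice of 20 macrophage, 13 B cell, 14 T cell or 10 adipocyte genes. B and T cell scores ran together (r = 0.91), while the macrophage score had r of 0.25 with the B cell and 0.21 with the T cell score.

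The members together varied about as much as other genes. The median SD was 0.30 over the 103 members, against 0.31 over all genes, on the log2 scale. It was 0.33 over the 50 members with division roles and 0.26 over the 53 with other roles. Top2a, which untangles DNA before chromosomes part, ran from -1.58 to 2.02 with a median of -0.08. Ccnb2, a cyclin B, ran from -2.08 to 3.16 (median -0.12), and Cdc20, an activator of the anaphase-promoting complex, from -1.44 to 3.08 (median -0.16). These values are high in few mice: mouse 12 held the highest value of 20 members and mouse 245 that of 16, of which 14 and 15 have division roles. Mouse 12 held the maxima of Ccnb2 and Cdc20 but was at -0.74 for Ccna2, -0.36 for Mcm5 and -1.21 for Cenpa, which was the lowest Cenpa value of all. Ccna1, a cyclin A of the male germ line, ran from -4.16 to 4.96 (median -1.60) and had r of 0.68 with the male germ cell score. Its highest value was in mouse 12, whose germ cell score stood apart, and the part of that mouse in this r was not tested. Values of Bub3, a checkpoint protein, ran from the lower limit of -6.64 to 4.86, and its 4 probes had a median pairwise r of -0.01, so this gene is not read firmly here.

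**Figure D1:**
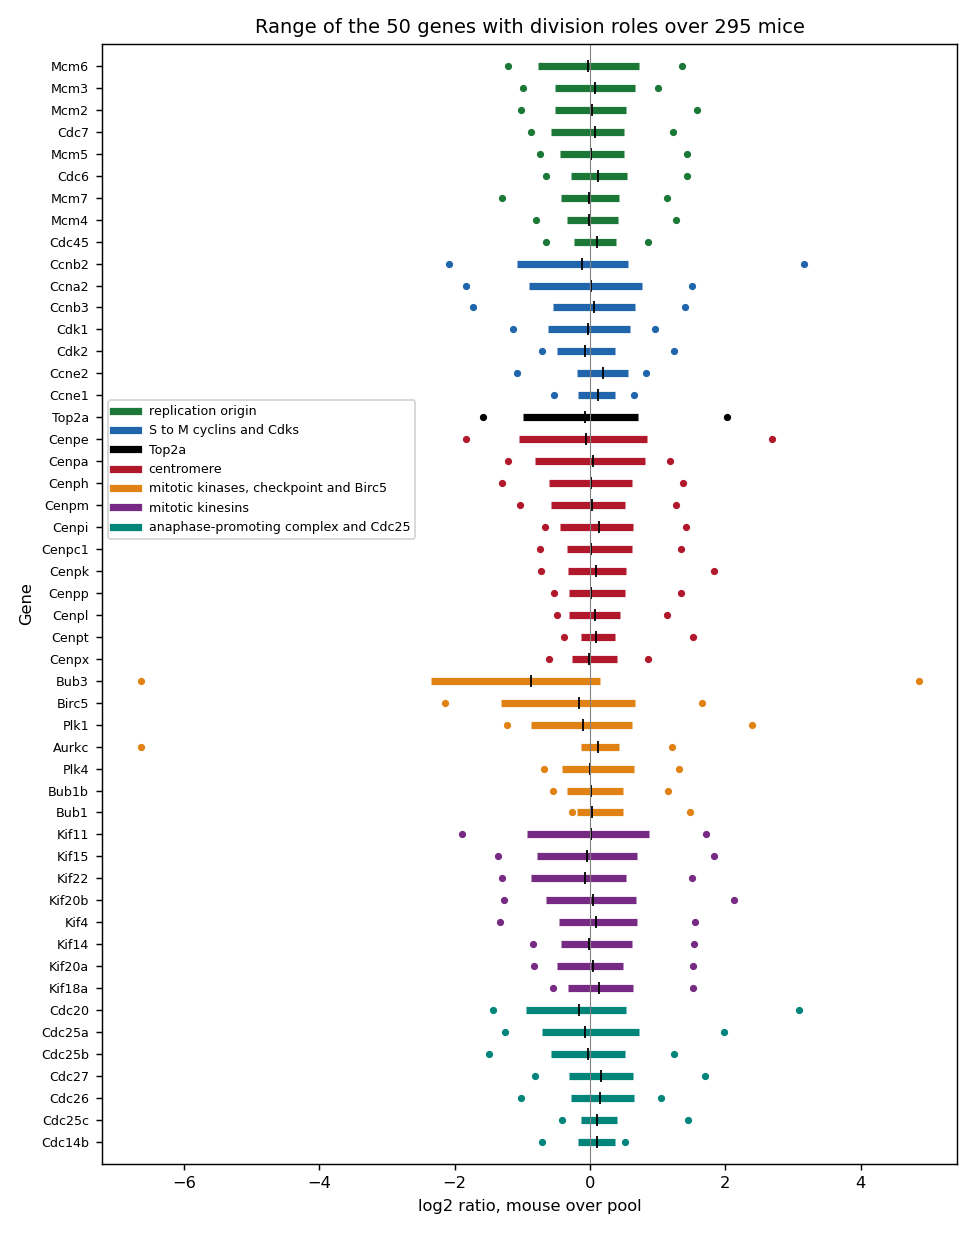
Range over 295 mice of the 50 members with division roles, as log2 ratio of mouse over pool. Bars run from the 5th to the 95th percentile, ticks mark the median and dots the lowest and highest mouse, coloured by role; most medians lie near 0, and Bub3 spans the widest range.

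Many of the division genes went up and down together from mouse to mouse. With Top2a as regressor, limma called 59 of 102 members higher and 25 lower at a Benjamini-Hochberg adjusted p under 0.05, where 25.8% of all genes were higher and 33.8% lower. Among members with division roles 39 of 49 rose with Top2a and 5 fell, and 28 of them had r of at least 0.4, which 6.13% of all genes reached. Kif11, the motor that pushes spindle poles apart, had r of 0.92 with Top2a, Kif20b, a kinesin of cytokinesis, 0.91, and Cenpe, a motor at the kinetochore, 0.88. The 2 probes of Cenpe had r of 0.00 with each other, and the more variable one is used. Ccnb2 had 0.87, Birc5 (survivin, a part of the chromosomal passenger complex) 0.86, Ccna2 0.86 and Mcm6 0.85. Plk1 and Cdc20, a mitotic kinase and the anaphase activator, had r of 0.95 with each other. Top2a with the 28 members past 0.4 had a mean pairwise r of 0.61, a value the choice by r itself raises, and the other 21 division members had 0.07.

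The genes nearest to Top2a outside the rule were also named for division or repair. Of all genes, Aspm, a spindle pole protein, had the highest r at 0.94, followed by Fanci, a DNA repair protein, at 0.93, Dbf4, the partner of Cdc7, at 0.92, Shcbp1 at 0.91, and Nusap1, Nuf2, Ttk and Ndc80 of the spindle and kinetochore at 0.90 each. Exo1, a DNA exonuclease, and Cdca5, written CDCA5 in the files, had 0.89. Among the 50 genes nearest to Top2a, 13 were members and 20 stood in a separate list of 49 other division genes, of which 46 rose with Top2a and 1 fell.

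Some division members did not follow Top2a. Bub1 and Plk4, a checkpoint kinase and the kinase of centriole doubling, with Kif14, Cenpc1 and Cenpp, ran with each other at a mean pairwise r of 0.82, a group chosen after its values were seen. Plk4, Kif14, Cenpc1 and Cenpp were highest in mouse 83, which held the highest value of 10 members, and the part of that mouse was not tested. The 2 probes of Cenpc1 had r of -0.24 with each other. Bub1 had r of -0.18 with Top2a. Bub1 ran from -0.27 to 1.47 with a median of 0.03. Its r was 0.39 with the neutrophil score, -0.25 with the mast cell score, 0.34 with the endothelium score and -0.36 with Eif2s3y, and the part of those cells in it was not tested. Top2a has 2 probes whose r with each other was 0.05, and their r to the macrophage score was 0.04 and 0.47. The more variable one, used here, is the one that runs with the other division genes.

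**Figure D2:**
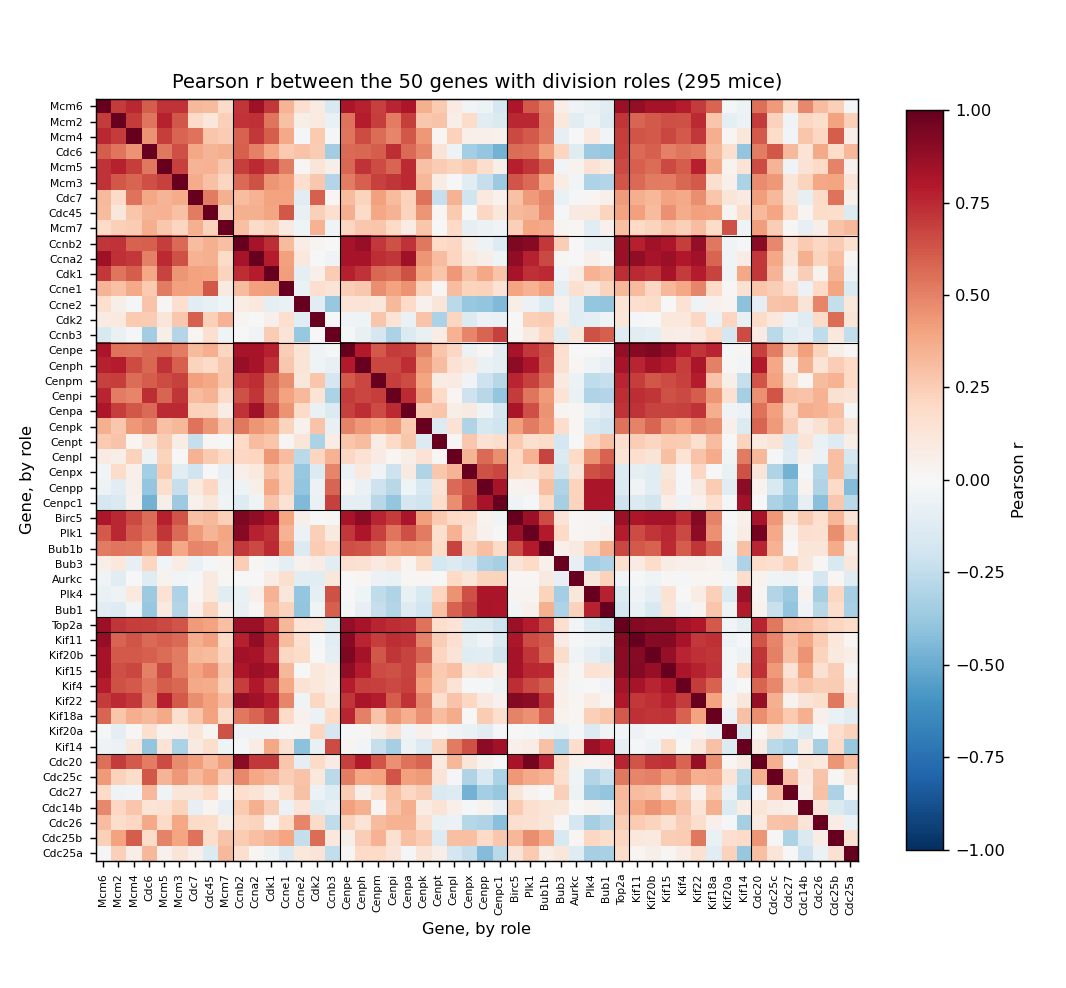
Pearson r over 295 mice between the 50 members with division roles, grouped by role with lines between roles; red is positive and blue negative. Plk1 and Cdc20 stand at 0.95, some pairs within a role are negative, such as Ccnb3 with Ccne2 at -0.38, and Bub1, Plk4, Kif14, Cenpc1 and Cenpp, which lie in 3 roles, are red with each other (mean 0.82).

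Promoters are shown for 5 members of the Top2a group because genes of late and of early division phases are known to carry different sequence elements. RefSeq promoter windows (GRCm38.p6), 300 bases long from 250 before to 50 after the start, matched 86 of the 103 members. The elements were searched on both strands, the cell cycle homology element CHR (TTTGAA), the CCAAT box (CCAAT) and the E2F element (TTTGGCGC, TTTCGCGC, TTTCCCGC or TTTGCCGC), and matches stand in capitals, on either strand. Overlapping E2F matches, as in Mcm6 and Mcm5, form 1 run of capitals. The windows are chr11:99024140-99024439 for Top2a, chr9:70421505-70421804 for Ccnb2, chr10:69352863-69353162 for Cdk1 and chr1:128359656-128359955 for Mcm6, all on the minus strand, and chr8:75109259-75109558 on the plus strand for Mcm5. Each is written 5′ to 3′ along its gene.
Top2a: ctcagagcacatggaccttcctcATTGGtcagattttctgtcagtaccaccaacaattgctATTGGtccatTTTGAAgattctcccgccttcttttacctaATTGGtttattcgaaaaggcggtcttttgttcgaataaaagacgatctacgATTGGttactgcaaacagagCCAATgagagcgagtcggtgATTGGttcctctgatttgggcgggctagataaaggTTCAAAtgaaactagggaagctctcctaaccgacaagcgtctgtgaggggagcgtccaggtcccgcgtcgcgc
Ccnb2: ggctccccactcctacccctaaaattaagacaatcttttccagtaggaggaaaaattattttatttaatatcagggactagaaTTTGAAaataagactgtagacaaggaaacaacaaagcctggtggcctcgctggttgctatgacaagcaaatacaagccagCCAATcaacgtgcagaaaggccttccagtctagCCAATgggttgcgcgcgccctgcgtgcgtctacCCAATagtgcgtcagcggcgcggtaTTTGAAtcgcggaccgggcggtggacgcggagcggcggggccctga
Cdk1: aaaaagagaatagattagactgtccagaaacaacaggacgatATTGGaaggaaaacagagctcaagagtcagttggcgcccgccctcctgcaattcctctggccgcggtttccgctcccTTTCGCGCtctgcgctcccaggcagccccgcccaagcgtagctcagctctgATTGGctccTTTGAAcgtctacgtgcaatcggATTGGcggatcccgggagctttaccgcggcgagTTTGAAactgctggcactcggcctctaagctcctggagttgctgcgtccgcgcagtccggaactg
Mcm6: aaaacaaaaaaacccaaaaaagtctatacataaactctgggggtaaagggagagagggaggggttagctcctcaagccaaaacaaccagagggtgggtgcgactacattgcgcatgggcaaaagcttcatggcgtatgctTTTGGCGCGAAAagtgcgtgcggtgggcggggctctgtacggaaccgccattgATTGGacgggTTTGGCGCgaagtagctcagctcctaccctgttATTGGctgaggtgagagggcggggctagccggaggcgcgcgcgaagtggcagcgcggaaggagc
Mcm5: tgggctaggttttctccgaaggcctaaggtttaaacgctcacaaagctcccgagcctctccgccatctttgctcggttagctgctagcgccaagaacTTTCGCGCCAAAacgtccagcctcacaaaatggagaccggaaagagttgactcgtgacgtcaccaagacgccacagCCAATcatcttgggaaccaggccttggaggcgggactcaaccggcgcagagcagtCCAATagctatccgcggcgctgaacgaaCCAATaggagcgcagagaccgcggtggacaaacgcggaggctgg

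The mitotic genes Top2a, Ccnb2 and Cdk1 each had 2 CHR matches, with 6, 3 and 3 CCAAT boxes, and Cdk1 also had 1 E2F match. The replication genes Mcm6 and Mcm5 had 3 and 2 E2F matches, with 2 and 3 CCAAT boxes, and the letters of CHR are not in these 2 windows. The 5 windows do not stand for all members of their roles. Among members with r of at least 0.4 to Top2a, CHR was in 3 of 7 replication windows (42.9%), those of Mcm2, Cdc7 and Cdc45, and E2F in 4 (57.1%). Of the 19 windows of other division roles, 12 had CHR (63.2%) and 4 had E2F (21.1%). Those with 0 CHR matches were Birc5, Kif18a, Cenpe, Cenph, Cenpi, Cenpk and Cenpm, so of the centromere genes among them only Cenpa had a match. A CHR match was present in 15 of 26 windows (57.7%) of division members with r of at least 0.4 to Top2a, Top2a included, and in 3 of 19 (15.8%) of the other division members. It was in 3 of 41 (7.32%) of members with other roles, and in 18.1% of all 27025 windows. CCAAT boxes were in 20 (76.9%), 13 (68.4%) and 12 (29.3%) of those windows, against 37.9% of all, and E2F matches in 8 (30.8%), 4 (21.1%) and 0, against 2.32% of all. CHR and CCAAT together were in 12 of the 26 windows (46.2%), against 7.12% of all. These are matches of letters in a window and show no binding.

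Division genes were higher in mice with more macrophage transcripts. Of the 103 members, 50 rose with the macrophage score and 16 fell (limma, Benjamini-Hochberg adjusted p under 0.05), where 26.5% of all genes were higher and 31.8% lower. Members with division roles rose in 32 of 50 cases and fell in 3, with a median r of 0.32, against -0.03 over all genes. Members with other roles rose in 18 and fell in 13 of 53, with a median r of 0.04. An r of at least 0.4 was reached by 29 members, where 10.7% of all genes reached it. In RNA of a whole tissue, fewer cells of a type and less RNA per cell cannot be told apart. The mean z of Top2a and the 28 members that follow it had r of 0.57 with the macrophage score, 0.35 with mast cell, 0.37 with neutrophil and -0.28 with endothelium scores, and the part of those cells was not tested. Among the 20 macrophage markers, Marco and Cd163 did not follow the rest, with r of 0.08 and -0.41.

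Among replication genes 6 of 9 rose with the macrophage score. Mcm6 ran from -1.21 to 1.37 (median -0.02), and rose by 0.40 ± 0.02 log2 units (SE, n = 295) per unit of score, r = 0.70, adjusted p = 6.13e-44. Mcm3 ran from -0.99 to 1.01 (median 0.07) with r of 0.63, Mcm5 from -0.74 to 1.44 (median 0.01) with 0.60, Mcm2 from -1.02 to 1.59 (median 0.03) with 0.49 and Mcm4 from -0.81 to 1.27 (median -0.02) with 0.39. All of them are subunits of 1 helicase ring, yet Mcm7, another subunit, had r of -0.02 (adjusted p = 0.760). Cdc6, which loads the helicase, had 0.39, while Cdc45, a part of the active helicase, had 0.11 (adjusted p = 0.102) and Cdc7, the kinase that fires origins, -0.05 (adjusted p = 0.506). For Mcm7 and Mcm3 the probes of the gene disagreed in part: Mcm7 probes differed in the sign of r, and those of Mcm3 had a median r of 0.05 with each other.

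The division member with the highest r to the macrophage score was the centromere gene Cenpa, while as a role the centromere genes had a median r of 0.36, against 0.39 for replication genes and 0.47 for mitotic kinesins. Cenpa, the histone H3 variant that marks centromeres, ran from -1.21 to 1.18 (median 0.04). It rose by 0.51 ± 0.02 log2 units (SE) per unit of macrophage score, r = 0.83, adjusted p = 9.75e-76. Low-score mice lie low and high-score mice high along nearly the whole range of Cenpa, with few mice off the line. Cenpi, ranging from -0.67 to 1.41 (median 0.14), had r of 0.64 and Cenph, ranging from -1.30 to 1.38 (median 0.02), had 0.57, both proteins of the inner kinetochore. Of 11 centromere genes 7 rose and 1, Cenpc1, fell (r = -0.13), though its probes differ in sign. Cenpe had 0.55 (its other probe 0.05), Cenpm 0.40, Cenpt 0.36 and Cenpx 0.17, and Cenpk, Cenpl and Cenpp did not pass.

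Of the S to M cyclins and kinases, 5 of 7 rose. Ccna2 ran from -1.84 to 1.51 (median 0.01) with r of 0.62, and Ccnb2 had 0.54. Cdk1, the kinase of mitotic entry, ran from -1.13 to 0.96 (median -0.03) with 0.45. Cdk2, the kinase of cyclins E and A in S phase, fell (r = -0.17, adjusted p = 0.00785). Birc5 ran from -2.14 to 1.66 (median -0.16) with r of 0.65 (adjusted p = 7.7e-36), Plk1 from -1.23 to 2.40 (median -0.11) with 0.41 and Top2a had 0.47 (0.33 ± 0.04 per unit, adjusted p = 9.45e-17). Kinesins of mitosis rose in 6 of 8 cases, led by Kif20b and Kif11 at 0.52 and Kif22, a chromosome arm motor, at 0.50. Kif15 had 0.48, Kif4 0.47 (its other probe -0.05) and Kif18a 0.25, while Kif14 and Kif20a did not pass. Around the anaphase-promoting complex 4 of 7 genes rose, Cdc14b, whose yeast relative is a phosphatase of mitotic exit, at 0.47, Cdc26, a subunit of the complex, at 0.32 (its probes differ in sign), Cdc25c at 0.31 and Cdc20 at 0.29. Cdc25a, a phosphatase that frees Cdks from inhibition, fell (r = -0.15, adjusted p = 0.0179), and Cdc27 and Cdc25b did not pass. Of the mitotic kinases and checkpoint genes 3 of 7 rose, and Bub1 (r = -0.07), Plk4, Aurkc and Bub3 did not pass. Ccne1 and Ccne2, cyclins of S phase entry, had 0.32 and 0.21, and Ccnb3 did not pass.

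The other genes of the division pathway ran the same way. In the separate list of 49 division genes 42 rose with the macrophage score, and 0 fell, also 0 at an unadjusted p under 0.05 in the limma fit, with a median r of 0.46. Pcna, the sliding clamp of replication, had 0.82, Gmnn, the licensing inhibitor geminin, 0.79, Tk1, thymidine kinase, 0.79 and Mki67, the Ki-67 antigen, 0.56. Of 18 inhibitors of the cell cycle 3 rose and 5 fell, where 26.5% of all genes were higher and 31.8% lower. Rbl1 had r of 0.58, Cdkn1a (p21) 0.46, and Cdkn2c (p18), an inhibitor of Cdk4 and Cdk6, -0.52.

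**Figure D3:**
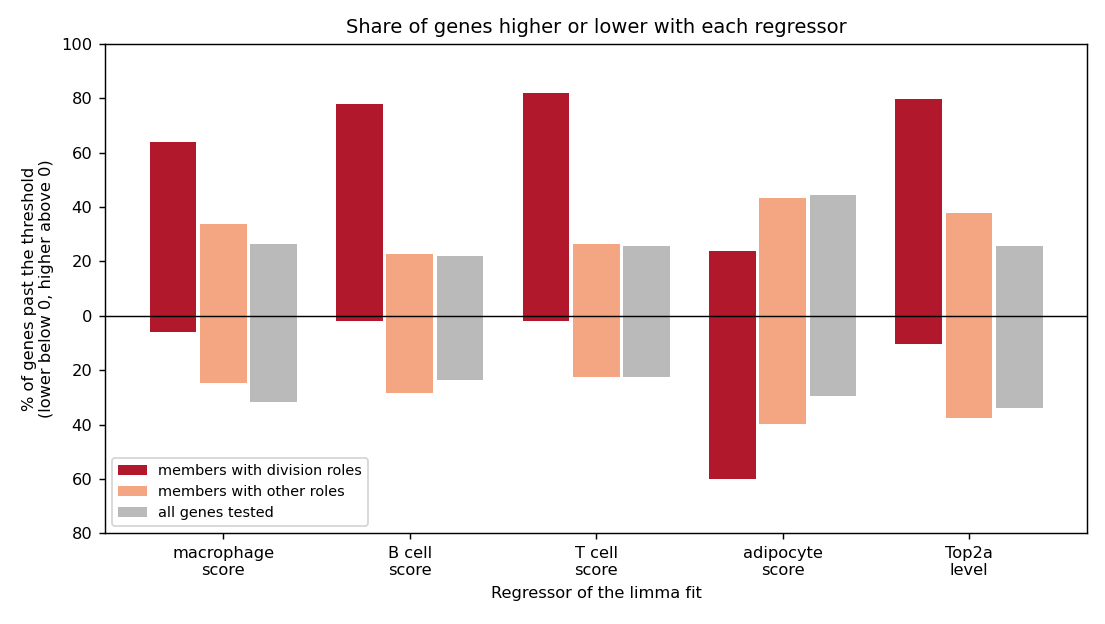
Percent of genes past an adjusted p of 0.05 in the limma fits, higher above and lower below 0, for the 50 members with division roles, the 53 with other roles and all genes tested. Division roles stand above all genes for macrophage, B cell, T cell and Top2a, and 60% of them were lower with the adipocyte score.

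Division genes were also higher in mice with more lymphocyte transcripts. With the B cell score 51 of 103 members rose and 16 fell, where 22.1% of all genes were higher and 23.6% lower. With the T cell score 55 rose and 13 fell, where 25.7% and 22.5% of all genes did. Division roles gave 39 higher and 1 lower of 50 with the B cell score and 41 and 1 with the T cell score. Fewer reached r of 0.4 than with macrophages, 9 members with the B cell score, where 3.45% of all genes did, and 9 with the T cell score, where 3.73% did.

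All 9 replication genes rose with both lymphocyte scores, and these included Cdc7, Cdc45 and Mcm7, which had not passed with macrophages. Without the 4 lymphocyte-rich mice 127, 145, 195 and 245, 8 rose with the B cell score and 9 with the T cell score. Cdc45 then had r of 0.07 with the B cell score (adjusted p = 0.358) and 0.14 with the T cell score, against 0.21 and 0.29 with them, and Cdc7 had 0.18 and 0.26. Mcm4 had r of 0.54 with the B cell score and 0.56 with the T cell score (adjusted p = 1.25e-21 and 7.79e-24). Mcm5 had 0.53 with each, Mcm2 0.50 and 0.47, and Cdc7 0.33 and 0.42. Bub1b, a checkpoint protein, ran from -0.54 to 1.16 (median 0.02) with r of 0.50 with each lymphocyte score and 0.23 with macrophages. Cdc25b, a phosphatase at mitotic entry, ran from -1.50 to 1.24 (median -0.03) and had 0.45 with B cells and 0.53 with T cells, while with macrophages it had 0.10 (adjusted p = 0.115). Plk1 and Cdc20 had 0.47 each with the B cell score and 0.43 each with the T cell score. Whether a gene's r differs between scores was not tested.

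Part of the lymphocyte relation rests on few mice. By the mean z of Top2a and the 28 members that follow it, mice 245, 195, 127 and 145 ranked 1, 2, 6 and 7 from the highest. Without these 4 mice, division roles gave 35 higher and 1 lower with the B cell score, where 22.8% and 22.0% of all genes were called, and 39 and 1 with the T cell score, where 28.6% and 22.3% were. An r of at least 0.4 was reached by 2 of the 103 members with the B cell score and 3 with the T cell score, in place of 9 each. Over all genes 2.44% and 2.72% reached it without these mice, so these counts are near the background. The median r of the members with division roles fell to 0.21 without the 4 mice, against 0.31 with them, for both scores. Top2a had r of 0.23 with the T cell score without them and 0.37 with them, Mcm2 0.31 and 0.47, and Mcm4 0.41 and 0.56. The macrophage counts of division roles were 32 and 3 without these mice, where 26.6% and 31.8% of all genes were called. Without mouse 12 they were 34 and 3, where 26.6% and 32.1% were.

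**Figure D4:**
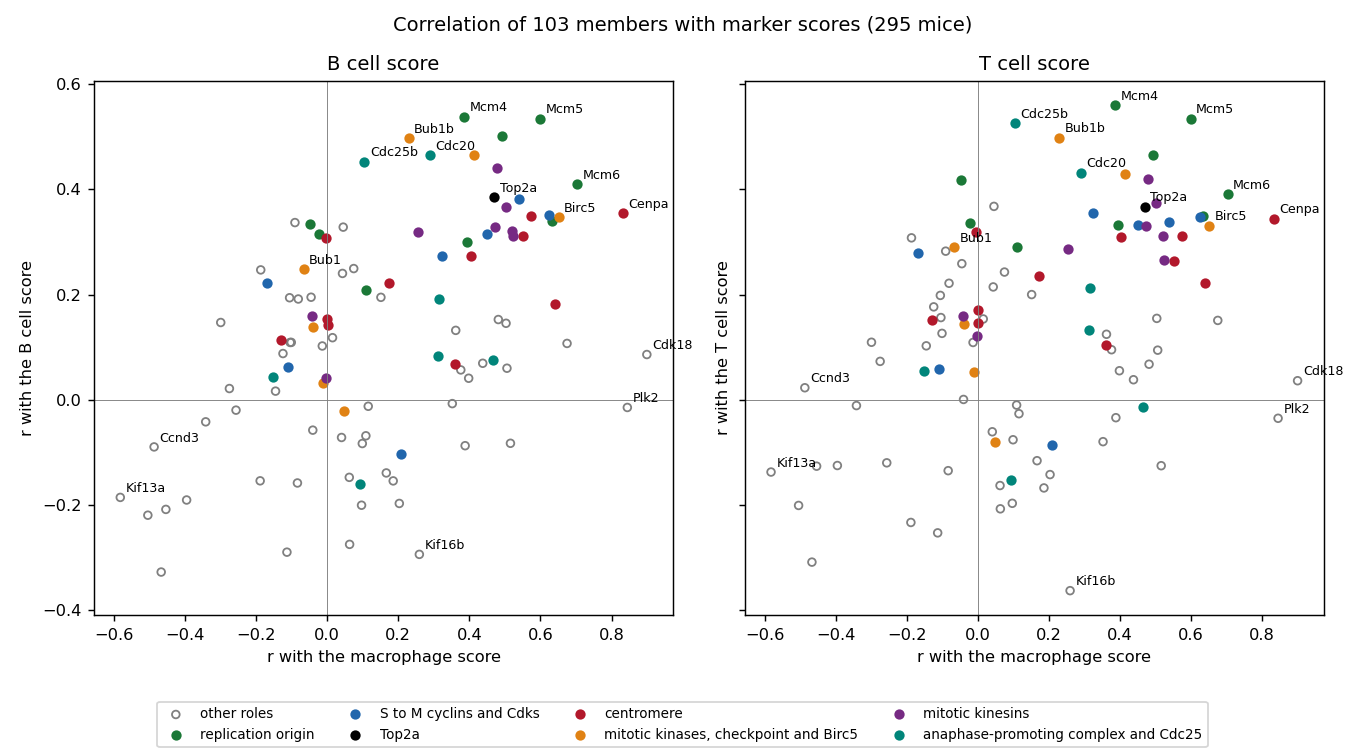
Pearson r of the 103 members with the macrophage score (x axis) against r with the B cell score (left) and T cell score (right), 295 mice. Cenpa and Mcm6 lie far right, Mcm4, Bub1b and Cdc25b lie high, and Plk2 and Cdk18 lie far right near 0 on the y axis.

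Both kinds of score were also put in 1 fit, with the B and T cell scores averaged into a lymphocyte score. In this fit, chosen after the data were seen and with all 295 mice, 51 of 103 members were higher with the macrophage score and 25 lower, where 26.9% and 34.2% of all genes were. With the lymphocyte score 53 were higher and 18 lower, where 25.9% and 25.2% were. Division roles gave 32 higher and 6 lower with macrophages, and 39 higher and 2 lower with lymphocytes. Of the 32 that rose with macrophages alone, 31 did so here, and 38 of the 39 that rose with both lymphocyte scores rose with the lymphocyte term. Both terms were higher for 26 of the 50. The partial r with lymphocytes was 0.52 for Mcm4 and Mcm5, 0.49 for Cdc25b and 0.48 for Bub1b. Among members with other roles it was -0.43 for Plk2 and -0.35 for Cdk18. Without macrophages in the fit, Plk2 had r of -0.01 with B cells and -0.03 with T cells, and Cdk18 had 0.09 and 0.04. Leaving out the lymphocyte-rich mice, these r were 0.090 and 0.095 for Plk2 and 0.19 and 0.16 for Cdk18. With the B and T cell scores kept apart, which run at r = 0.91, the B cell term gave 9 higher and 19 lower members, where 11.8% and 21.1% of all genes were called. The T cell term gave 27 and 7, where 22.9% and 12.8% were.

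The macrophage relation of division genes was present in each of the 3 sets of mice. Division roles rose with the macrophage score in 35 of 50 cases in the Eif2s3y-low mice, where 23.4% of all genes did. They rose in 33 in the 105 Eif2s3y-high mice free of epididymis transcripts, where 21.4% did, and in 19 in the 48 mice that carry them, where 14.9% did. With the B cell score the counts were 37, 23 and 8, where 22.0%, 17.8% and 4.27% of all genes rose. For the T cell score they were 34, 19 and 8, where 16.6%, 13.3% and 7.74% did. The median r of division roles was 0.28, 0.43 and 0.18 with the macrophage score. It was 0.35, 0.23 and 0.18 with the B cell score and 0.34, 0.21 and 0.12 with the T cell score. The 4 lymphocyte-rich mice are all in the first set. The part of set size in these counts was not tested. In these sets r between Cenpa and macrophage markers was 0.78, 0.90 and 0.89, that of Mcm5 0.54, 0.76 and 0.73, that of Birc5 0.63, 0.84 and 0.45, and that of Plk1 0.39, 0.77 and 0.17. In the last set mouse 12 is included, whose macrophage score was -1.52 while its Birc5 and Top2a were 1.66 and 1.98.

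For 10 key members the correlations were also tested by permutation, as 40 pairs with 4 scores. Of these pairs 37 passed an adjusted p of 0.05 (two-sided, 100000 permutations, Benjamini-Hochberg over the 40), most of them with p = 1e-05, the smallest that the permutations can give. Cenpa with the macrophage score gave r = 0.83 and rho = 0.85, and 0.83 without the 2 mice farthest from the median score. It was 0.82, 0.79 and 0.85 in 3 equal blocks of low, middle and high mouse numbers. Top2a gave r = 0.47 and rho = 0.58, then 0.48 without 2 mice, and 0.37, 0.48 and 0.56 in the blocks. With the T cell score Top2a gave 0.23, 0.57 and 0.11 in the blocks. All 4 lymphocyte-rich mice lie in the middle block, where r was 0.27 over the other 94 mice. Bub1 with macrophages, and Ccnd1 with B and with T cells, were the 3 pairs that did not pass (p = 0.254, 0.907 and 0.175). Genes and markers were read on the same arrays, which share any array error.

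**Figure D5:**
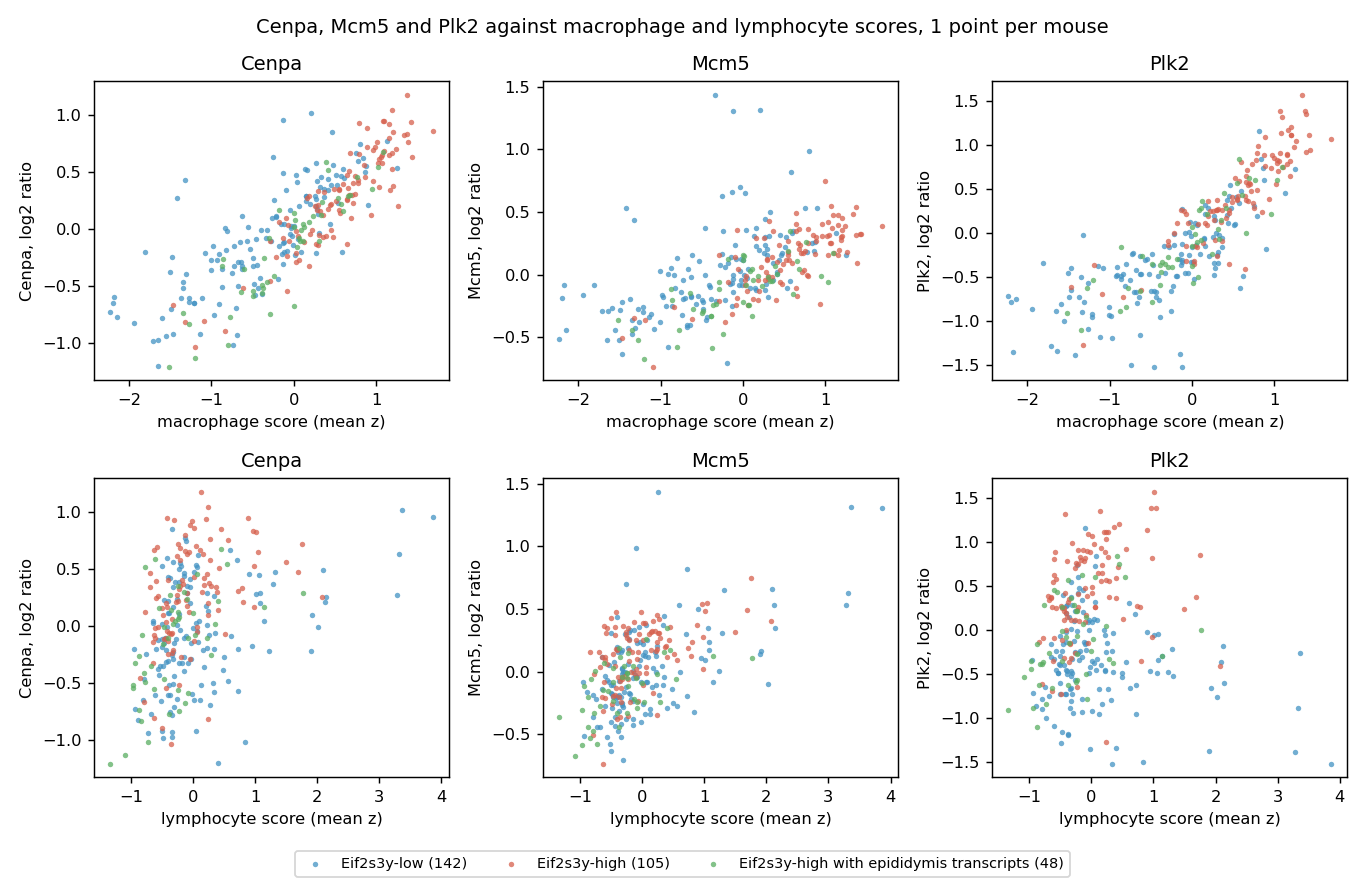
Log2 ratios of Cenpa, Mcm5 and Plk2 in each mouse against the macrophage score (top) and the lymphocyte score (bottom), both as mean z, coloured by set (142, 105 and 48 mice). Cenpa and Plk2 climb along the macrophage score, and the few mice with lymphocyte scores above 3 are above 0 in Cenpa and Mcm5 and below 0 in Plk2.

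Division genes were lower where adipocyte transcripts were higher. Of the 103 members 51 fell with the adipocyte score and 35 rose, where 29.6% of all genes fell and 44.3% rose. Division roles fell in 30 of 50 cases and rose in 12, with a median r of -0.23. Cenph had r of -0.61, Mcm2 -0.51, Kif20b -0.49 and Ccnb2 -0.49. The adipocyte score itself had r of -0.55 with the macrophage score and -0.58 with Eif2s3y, so these relations are not separate, and the part of each was not tested. Without the 48 mice with epididymis transcripts 34 division members fell and 2 rose, where 25.1% of all genes fell and 30.8% rose. Within the 3 sets 31, 29 and 16 fell, where 17.7%, 19.5% and 6.51% of all genes did.

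D cyclins, which carry growth signals into G1, went in different directions. Ccnd1 ran from -1.73 to 1.66 (median 0.00) and rose with macrophages (r = 0.35) while it fell with the adipocyte score (r = -0.64, adjusted p = 5.69e-34). Within the 3 sets that r was weaker, -0.39, -0.48 and -0.19. Ccnd3 ran from -0.83 to 0.78 (median 0.06) and had r of -0.49 with macrophages and 0.75 with adipocytes. Ccnd2 had -0.28 and 0.67. With adipocytes within the sets, Ccnd3 had 0.66, 0.70 and 0.73 and Ccnd2 0.36, 0.57 and 0.69. Ccnd1 and Ccnd2 had r of -0.54 with each other. Cdk4, the kinase that D cyclins activate, had 0.04 with macrophages and 0.24 with B cells.

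The closest relations to macrophages among all members lay outside the division roles. Cdk18, a kinase of the PCTAIRE branch, ran from -3.14 to 1.89 (median -0.31), with an SD of 1.08. It rose by 1.21 ± 0.03 log2 units (SE) per unit of macrophage score, r = 0.90, adjusted p = 6.16e-106. Plk2, a stress-responsive Polo-like kinase, ran from -1.52 to 1.58 (median -0.09) and rose by 0.66 ± 0.02, r = 0.84, adjusted p = 5.67e-80. Cdk18 and Plk2 had r of 0.86 with each other. With Top2a they had 0.32 and 0.44, and with the B cell score 0.09 and -0.01. Plk3, of the same branch as Plk2, fell (r = -0.15). Cdk14 had 0.67 and the transport kinesins Kif17 and Kif3c 0.52 and 0.50, while Kif13a, a motor of vesicle transport, fell (r = -0.58, range -1.24 to 0.89, median -0.02) and had 0.65 with adipocytes. Kif17 had r of 0.65, 0.12 and -0.31 in the 3 sets. Over all roles, the slope on the macrophage score depended on the Eif2s3y level for 19 members upward and 14 downward, where 15.9% and 15.8% of all genes did.

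Of the 53 members with other roles, 34.0% rose with the macrophage score and 24.5% fell, against 26.5% and 31.8% of all genes. Among 17 members grouped by name as transcriptional and other Cdks, 8 rose with the macrophage score and 2 fell. These 17 include Cdk2ap1, Cdk5r1, Cdk5r2, Cdk5rap2 and Cdk5rap3, which are not kinases themselves. Beside Cdk18 and Cdk14, Cdk20 had r of 0.51, Cdk19, a kinase of the Mediator complex, 0.44 and Cdk9, the kinase of transcription elongation, 0.40, while Cdk5rap3 (-0.50) and Cdk12 (-0.19) fell. With the T cell score Cdk17, Cdk12 and Cdk13 had 0.37, 0.31 and 0.28, while with macrophages Cdk17 and Cdk13 did not pass. Among 17 transport and other kinesins 5 rose with macrophages (29.4%) and 4 fell (23.5%), which is near the background. Kif3b, a motor of cilia and vesicles, had 0.36, and Kif21a, Kif26a and Kif9 had -0.47, -0.40 and -0.26. Kif9, known from sperm tails, ran from -0.35 to 3.29 (median -0.03), with the top value in mouse 12. Kif16b, a motor of endosomes, rose with macrophages (r = 0.26) and fell with the T cell score (r = -0.36) and with adipocytes (r = -0.60, though 0.03, -0.48 and -0.57 within the 3 sets). Cdc42, the small GTPase of cell shape, rose with macrophages (r = 0.39), while its effectors Cdc42ep5 and Cdc42bpg fell (-0.45 and -0.34, with the other Cdc42bpg probe at 0.24) and Cdc42ep4 and Cdc42bpb did not pass. Cdc5l, a splicing factor despite its name, had 0.48 (its other probe 0.10) and Cdc37, a chaperone of kinases, 0.15. Ccnb1ip1, a protein of meiotic crossing over, ran from -1.91 to 3.11 (median -0.17) and fell (r = -0.30). With the adipocyte score Kif26a had 0.66, Kif1c, a transport motor, 0.51 and Cdc42ep5 0.50. Within the 3 sets Kif1c had 0.14, 0.32 and 0.49 and Cdc42ep5 0.22, 0.39 and 0.36.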

How the data were processed

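The authors deposited ratios for 23387 probes, read here as log10, with no scale, base, centring or direction stated in the labels. Per the labels, the mouse carried Cy3 and the pool Cy5. The sources used here name no method of background correction or normalization. Values lay between -2 and 2 and were multiplied by 3.32 to give log2 ratios. Read as log10 and as mouse over pool, the median of Lcn8 in the 48 arrays with epididymis transcripts was 2.13, against 0.64 read as log2. A pool of equal portions allows at most 2.62 for the log2 of the mean ratio over those arrays. A median can lie above that value, so it is no strict limit here. Lcn9, Gpx5 and Adam7 had 1.50, 1.35 and 1.17 read as log10. Eif2s3y and Kdm5d in the 153 Eif2s3y-high mice had 1.26 and 1.29, above the 0.95 allowed for their mean. Read as natural logs, Eif2s3y had 0.55 and Lcn8 0.93, both under the values allowed for a mean. The values thus do not settle the base, and all log2 sizes given here rest on the log10 reading. Of all values 1.02% were missing. Probes with values on 90% of arrays or more were kept, 22894 in all, and 493 were left out. Remaining gaps were filled with the probe's mean. The platform annotation gave 13644 probes 1 symbol, 48 several and 9695 none, and 12652 were matched to RefSeq genes of GRCm38.p6. A gene is its most variable probe with 1 symbol. Of 137 probes of the members 1 failed the filter and 26 members have several probes, which differ in the sign of r with the macrophage score for 12 of them, Aurkc, Bub3, Cdc26, Cdc34, Cdc42bpg, Cdk10, Cdk2ap1, Cdk6, Cenpc1, Kif19a, Kif4 and Mcm7. Array medians lay between -0.17 and 0.13. Arrays give no read depth, and their number limits the precision. Whether mice shared a litter, array batch or day is not in the labels, and the series text gives 295 mice and the sample text 330.

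Each probe was fitted on a marker score or on Top2a with limma 3.58.1 in R 4.3.3 (lmFit and eBayes), with Benjamini-Hochberg adjustment over all probes. Gene r is the partial r of that fit. Correlations of 12 chosen members were planned, and Ccnb1 and Aurkb have no named probe here. Scores and permutations used Python 3.11.15 with SciPy 1.17.1, pandas 2.3.3 and NumPy 2.4.6, and plots used matplotlib 3.10.9. Tested on simulated data of 22894 probes with a macrophage slope planted, the fit recovered 68% of slopes of 0.1 and 91% of slopes of 0.2 with 8 false calls. The simulation shuffled mice within each probe, which removes relations between genes, so its false calls do not describe the real, correlated data. Alternatives were array medians removed, ranks, the mean of a gene's probes, no filter on missing values, mouse-number range as a factor, Eif2s3y and epididymis as covariates and arrays left out. Members and lists were chosen with earlier results of these data known. Genes named are the 12 planned members, in each role the 3 highest and the 1 lowest by t on the macrophage score, the 3 highest on the B cell and T cell scores, genes whose probes disagree in sign, the 5 of largest SD and the 10 nearest to Top2a; others were named after their values were seen.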

Additional observations from a re-analysis of the deposited data

Results flagged for a closer look

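The slope of a member on the macrophage score differed along the Eif2s3y level in 19 members upward and 14 downward, by the test of the product of the score and that level in the limma fit with both and the epididymis score. The labels name no sexes, and Eif2s3y serves here as a measured level. The score and the Eif2s3y level were standardised in this fit, so the product is in log2 units per SD of each. Among the members named, the product was positive for Ccna2 (0.0848), Cdc25b (0.0845), Top2a (0.0825), Plk3 (0.0814), Mcm3 (0.0797), Kif4 (0.0792), Kif3c (0.0775), Cenpa (0.0725), Cdk14 (0.0687) and Mcm6 (0.0654). It was also positive for Plk2 (0.101), Cenpi (0.0603), Cdk2 (0.0481), Cdc42bpb (0.0465), Cdc42 (0.0332) and Cdk4 (0.0321). It was negative for Ccna1 (-0.149), Kif17 (-0.127), Kif14 (-0.0592), Cdk5rap3 (-0.0587), Cenpc1 (-0.0515) and Cdc42bpg (-0.0404). The members' shares, 18.4% upward and 13.6% downward, are near those of all genes, 15.9% and 15.8%. For Top2a, r with the macrophage score was 0.77 in Eif2s3y-high mice free of epididymis transcripts, 0.38 in those that carry them and 0.36 in Eif2s3y-low mice.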

How the results depend on the processing

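Of the counts over the members under alternatives, 144 stayed within 1.5 times the reported value, and 20 moved further. With B and T cell scores in 1 fit, the B cell term gave 3 members higher and 4 lower with array medians removed, 2 and 7 without the arrays with epididymis transcripts, and 3 and 4 with Eif2s3y and epididymis as covariates. The T cell term gave 11 and 3, 10 and 0 (3 at an unadjusted p under 0.05 in limma), and 8 and 3 under the same alternatives. Members higher with the adipocyte score numbered 17 without the epididymis arrays and 15 with the covariates. Members lower with Top2a numbered 15 with Birc5 in its place and 13 with the mean of a gene's probes. Slopes that differ along Eif2s3y numbered 5 higher and 5 lower on ranks, 30 higher without mouse 12, and 7 lower without the epididymis arrays. The cause of these changes was not tested.

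Signs turned in 64 single-gene values, of which 3 for Ccnd1 are the same r in the permuted correlations and the limma fits, with r of at most 0.129 in size before the turn and 0.269 after it. With the macrophage score r turned with the covariates for Aurkc (0.0078), Bub1 (0.056), Bub3 (-0.0038), Cdc34 (0.054), Cdc7 (0.011), Cdk2ap1 (-0.027), Cdk6 (0.072), Cenpc1 (0.028), Kif14 (0.12) and Kif19a (0.045), with mouse-number range as a factor for Mcm7 (0.012) and on ranks for Aurkc (0.20) and Mcm7 (0.041). It also turned by mean of probes for Cdk10 (-0.12), Cdk6 (0.27), Cenpc1 (0.10) and Mcm7 (0.11) and without mouse 12 for Mcm7 (0.0041). With the B cell score r turned with array medians removed for Bub3 (0.0053) and Ccnd1 (0.027), without the epididymis arrays for Bub3 (0.069) and Ccnd1 (0.053), with the covariates for Bub3 (0.015), Ccnd1 (0.091), Plk2 (0.031) and Plk3 (-0.014) and with mouse-number range as a factor for Ccnd1 (0.011). It also turned on ranks for Bub3 (0.040), Ccnd1 (0.035), Cdc25a (-0.032) and Plk2 (0.14), with no filter for Cdc42 (0.12), without mouse 12 for Bub3 (0.0049) and without the 4 lymphocyte-rich mice for Ccnd1 (0.027), Cdc25a (-0.033), Cdc25c (-0.0076), Plk2 (0.090) and Plk3 (-0.013). With the T cell score r turned with array medians removed for Ccnd3 (-0.048) and Cdc14b (0.00028), without the epididymis arrays for Bub3 (0.048), Ccnd1 (0.022), Ccnd3 (-0.067) and Cdc14b (0.013), with the covariates for Ccnd1 (0.065), Ccnd3 (-0.096), Cdc14b (0.051) and Cdk2ap1 (0.015) and with mouse-number range as a factor for Cdc42bpg (0.0024). It also turned on ranks for Ccnb1ip1 (-0.013), Ccnd3 (-0.041), Cdc42 (0.046), Kif28 (0.033) and Plk2 (0.12), with no filter for Cdc42 (0.10), by mean of probes for Cdk2ap1 (0.0074) and without the 4 lymphocyte-rich mice for Ccnd3 (-0.037), Cdc25a (-0.037), Cdc42 (0.025), Kif28 (0.040) and Plk2 (0.095). Of the other single-gene values 1514 kept direction and side of the threshold, 61 passed it and 61 no longer did. The alternatives without mouse 12, without the 4 lymphocyte-rich mice, with Birc5 in place of Top2a and with a lymphocyte score were chosen after seeing the data. No paired analysis was possible because the mice form 1 group. Ratios to a pool carry no signal over background, so what dim probes limit cannot be read here.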
